A study of Rattus norvegicus with 5 samples.

Results

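The expression of 6 genes that have been linked to p53 and carry death or stress signals was followed in cultured rat lenses: Eda2r, Gdf15, Phlda3, Tp53inp1, Ei24 and Ptp4a1. They were chosen by name, as every probe set (the group of array probes that reads 1 gene) whose only symbol in the platform annotation was one of these 6, of 18166 genes with such a probe set. This gave 7 probe sets of the 36685 on the array, 2 of them for Ptp4a1 and 1 for each other gene. Lenses of 6-week-old male Sprague Dawley rats had been cultured outside the body in serum-free medium with 1 mM MMS (methylmethanesulfonate) for 2 days (MMS Day 2) or 4 days (MMS Day 4), with 800 μg/mL Bleomycin for 2 days (Bleomycin Day 2) or 6 days (Bleomycin Day 6), or with normal medium alone for 4 days (Control), the drugs being renewed daily. MMS adds methyl groups to DNA bases, and Bleomycin cuts DNA strands through reactive oxygen. Each condition had 1 array, so no difference below has a replicate array or a p-value, and the spread between lenses is not known. Only MMS Day 4 matched the Control in days of culture, and for MMS Day 4 against Bleomycin Day 6 drug and days in culture cannot be told apart.

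p53 is a transcription factor that is held at a low level by MDM2 and is released when the kinases ATM and ATR sense damaged DNA. The target genes of p53 stop the cell cycle, aid repair, or push the cell towards death. In the lens only the anterior epithelium divides, while the fiber cells that fill the lens lose their nuclei. Among the genes followed here, Eda2r encodes a receptor of the TNF family for the A2 form of ectodysplasin, and Gdf15 a secreted stress factor of the TGF-beta superfamily. Phlda3 encodes a small protein that competes with the survival kinase AKT for membrane lipids. Tp53inp1 encodes a stress protein that takes part in p53-dependent death and in autophagy, Ei24 a membrane protein of the endoplasmic reticulum needed for autophagy, and Ptp4a1 a membrane-bound phosphatase that has been linked to growth.

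The values are log2 signals, so a difference of 1 stands for 2-fold. A log2 signal of 5 is the level under which the study set probe sets aside as too dim. It was reached in some array by 4155 of the 18511 probe sets with 1 symbol, called kept probe sets here, and by all 7 of the 6 genes. For 6 of these 7 it was reached in each of the 5 arrays, the exception being Eda2r. Over the kept probe sets the arrays differed, with medians of 5.68 and 5.34 on MMS Day 2 and Day 4. They were 5.68 and 5.50 on Bleomycin Day 2 and Day 6, and 5.97 in Control. Over all 36685 probe sets the medians were 2.95, 3.02, 2.93, 2.98 and 2.84 in the same order. A probe set is kept if it reaches 5 in any array. In Control 3797 with 1 symbol did so, and in MMS Day 4 2719 did. Fiber markers were bright in all arrays, with 8 of 8 measured markers at 5 or above, and 0 of 6 retina, 0 of 7 macrophage, 0 of 2 blood and endothelium and 0 of 6 iris and ciliary pigment markers reached 5 in any array. Of 12 lens epithelium markers, 8 and 4 reached 5 on MMS Day 2 and Day 4, 5 and 4 on Bleomycin Day 2 and Day 6, and 10 in Control.

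Eda2r, the receptor, had a log2 signal of 5.26 on Day 2 and 3.53 on Day 4 of MMS and 5.82 on Day 2 and 5.34 on Day 6 of Bleomycin, against 2.91 in Control. It stood above Control in each treated array, as did 487 of the 4155 kept probe sets (11.7%). It did so by least in MMS Day 4, where it was under 5 as in Control. The MMS Day 4 difference passed 2-fold with each array centred on its median (1.25) or with quantile normalization (1.30). The differences from Control were 2.36, 0.62, 2.92 and 2.43 in the same order, the second largest of all 6 genes in Bleomycin Day 6 and the largest in MMS Day 2 and Bleomycin Day 2. In Bleomycin Day 2 only 3 of the 4155 kept probe sets stood higher relative to Control. The Control level exceeded that of 41.1% of all genes with 1 symbol, so it lay among the dim probe sets and the size of these folds is not resolved.

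Gdf15, the secreted factor, had 7.42 on Day 2 and 6.65 on Day 4 of MMS and 6.86 on Day 2 and 8.05 on Day 6 of Bleomycin, against 5.44 in Control. Each treated array was more than 2-fold above Control, with differences of 1.98, 1.21, 1.42 and 2.62. As deposited, it was the only one of the 6 genes with this pattern, which 12 of the 4155 kept probe sets showed. The MMS Day 4 difference was 1.84 after median centring, 1.78 after quantile normalization and 0.84 where arrays were centred on their olfactory receptor probe sets. Eda2r had the pattern too with median centring, and Eda2r and Phlda3 had it with quantile normalization. The study picked Eda2r and Gdf15 from these same arrays for follow-up, so their direction here is not independent evidence. The same holds for Cdkn1a, Mdm2, Plk2, Abcb1b and Pln, which are named below. In the paper, RT-qPCR (a measure of single RNAs) with biological replicates found all of these genes raised under MMS. It placed them in the group whose expression peaked midway through the MMS culture and then fell. The paper describes this RT-qPCR for MMS and not for Bleomycin, and its values were not analysed here.

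Phlda3, the AKT competitor, had 5.75 on Day 2 and 5.58 on Day 4 of MMS and 6.39 on Day 2 and 6.74 on Day 6 of Bleomycin, against 5.03 in Control. Both Bleomycin arrays were higher than both MMS arrays, and all 4 were above Control, as for 11.7% of the kept probe sets. The differences from Control were 0.71 and 0.55 under MMS and 1.36 and 1.71 under Bleomycin. In MMS Day 4 the difference was 1.17 with median centring and 1.29 with quantile normalization, and in MMS Day 2 it was 1.11 with the second of these. The Bleomycin Day 6 value as deposited is a 3.27-fold difference, above 4136 of the 4155 kept probe sets.

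Tp53inp1 had 6.40 on Day 2 and 5.48 on Day 4 of MMS and 7.63 on Day 2 and 7.77 on Day 6 of Bleomycin, against 5.88 in Control. The Bleomycin arrays stood apart from the other 3, 1.76 and 1.90 above Control. The MMS arrays lay on both sides of Control, with 0.52 on Day 2 and -0.40 on Day 4. Over all kept probe sets the median difference of MMS Day 4 from Control was -0.45, and with each array centred on its median the value of Tp53inp1 was 0.23.

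Ei24 had 6.89 on Day 2 and 6.06 on Day 4 of MMS and 7.15 on Day 2 and 7.38 on Day 6 of Bleomycin, against 6.52 in Control. Its order over the arrays was that of Tp53inp1, with differences of 0.37, -0.46, 0.64 and 0.87, none of them 2-fold as deposited. With median centring the MMS Day 4 difference was 0.17 and that of Bleomycin Day 6 was 1.33, and with quantile normalization that of Bleomycin Day 6 was 1.25.

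Ptp4a1 went the other way. It was below Control in each treated array, as were 2061 of the 4155 kept probe sets (49.6%). Ptp4a1 has 2 probe sets. The first had 8.65 on Day 2 and 8.21 on Day 4 of MMS and 9.34 on Day 2 and 9.49 on Day 6 of Bleomycin, against 10.46 in Control, and the second had 8.10, 7.54, 8.70 and 8.83 in the same order, against 9.90 in Control. Both put the arrays in 1 order, with Control highest and MMS Day 4 lowest. Averaged over both, the differences from Control were -1.81 and -2.31 in MMS Day 2 and Day 4 and -1.17 and -1.02 in Bleomycin Day 2 and Day 6, and no difference of a single probe set was further than 0.06 from this average. On Bleomycin Day 6 the probe sets had -0.97 and -1.07. With median centring the Bleomycin differences were -0.88 and -0.56, short of 2-fold.

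**Figure D1:**
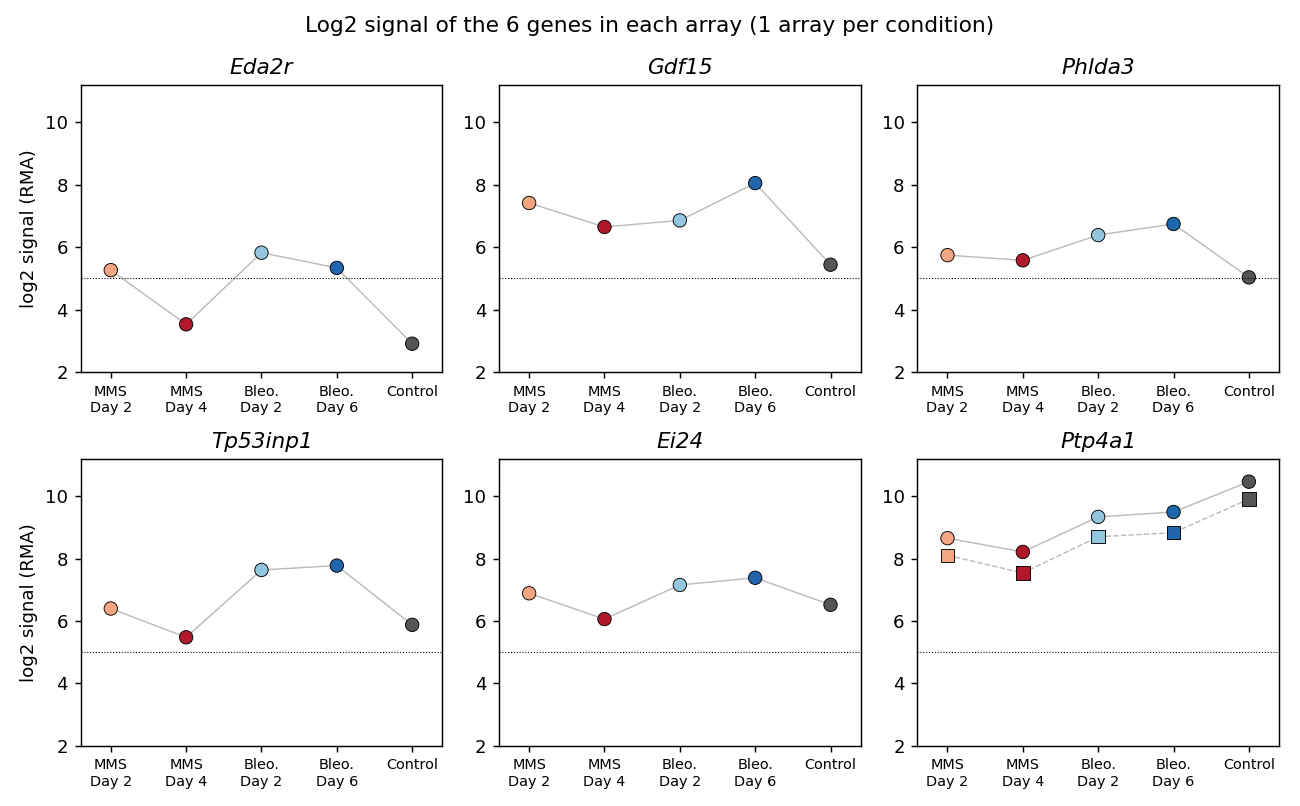
Log2 signal of the 6 genes (y axis) in the 5 arrays (x axis), 1 point per array and probe set, with a dotted line at a signal of 5; squares show the second Ptp4a1 probe set, and grey lines only join the points of a probe set. For Eda2r, Gdf15 and Phlda3 all treated arrays lie above Control, as for 11.7% of the kept probe sets. For Ptp4a1 all lie below it, as for 49.6%. For each gene but Gdf15 both Bleomycin arrays lie above both MMS arrays.

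RefSeq promoter windows (300 bases, from 250 before to 50 after a start site, GRCr8 assembly) were held for 5 of the 6 genes, Gdf15 with 2 windows, and not for Tp53inp1. They were searched for the p53 half-site, the motif that a pair of p53 molecules binds, which reads the same on both strands. An exact match was found in Ei24 alone, GGGCATGCCC, beginning 79 bases before the start site, and 7.98% of all 33469 windows hold one. The letters TGATGNAA, on either strand, the motif of the ATF4 stress factor with a C/EBP partner, were in none of the 6 windows and in 3.98% of all. The windows of Ei24 and Ptp4a1 are printed, 5′ to 3′ on the strand of the gene, with the p53 half-site in capitals. Ei24 holds the only match. Ptp4a1 is the one of the 6 genes below Control in each treated array, as 49.6% of the kept probe sets were. The Ei24 window is chr8:44699322-44699621 and the Ptp4a1 window chr9:40718127-40718426, both on the minus strand. A match is a description of the sequence, and sites outside these windows were not searched.
Ei24: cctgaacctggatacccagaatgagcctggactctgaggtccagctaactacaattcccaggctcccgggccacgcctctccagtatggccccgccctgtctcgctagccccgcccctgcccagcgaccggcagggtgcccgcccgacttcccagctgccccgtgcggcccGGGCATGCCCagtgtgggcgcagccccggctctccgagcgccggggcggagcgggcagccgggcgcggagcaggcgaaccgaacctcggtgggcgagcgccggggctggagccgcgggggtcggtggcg
Ptp4a1: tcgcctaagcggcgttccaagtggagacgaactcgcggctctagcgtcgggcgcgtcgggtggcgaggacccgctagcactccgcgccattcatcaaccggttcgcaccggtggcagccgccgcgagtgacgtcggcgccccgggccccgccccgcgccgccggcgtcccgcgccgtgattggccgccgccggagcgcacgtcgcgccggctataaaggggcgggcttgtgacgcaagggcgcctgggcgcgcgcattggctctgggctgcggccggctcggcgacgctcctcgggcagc

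At the earlier stage, both drugs at equal days, 5 of the 6 genes had a lower signal with MMS than with Bleomycin. Of the 4155 kept probe sets, 1775 had. Tp53inp1 was lower by 2.36-fold (log2 difference -1.24), and only 8 kept probe sets had a lower difference. Ptp4a1 (-0.64), Phlda3 (-0.64), Eda2r (-0.56) and Ei24 (-0.27) were short of 2-fold. Gdf15 was the one gene higher in MMS Day 2, by 0.56. At least 2-fold lower was 1 of 7 probe sets, where 0.505% of the kept probe sets were, and at least 2-fold higher were 0 of 7, where 1.37% were. The median difference was -0.59 over the 7 probe sets and 0.00 over all kept probe sets.

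At the later stage MMS Day 4 had all 6 genes at least 2-fold below Bleomycin Day 6. Tp53inp1 differed by 4.91-fold (-2.30), with 7 kept probe sets below it. Eda2r had -1.81, but its MMS Day 4 signal was under 5, so the size of that difference is not resolved. Gdf15 followed with 2.65-fold (-1.41), Ei24 with 2.50-fold (-1.32), Ptp4a1 with 2.44-fold (-1.29) and Phlda3 with 2.24-fold (-1.17). That is 7 of 7 probe sets, where 4.24% of the kept probe sets were at least 2-fold lower and 0.89% higher, and the medians were -1.32 and -0.09. With quantile normalization 6 of 7 probe sets were lower by that much, where 2.29% of the kept probe sets were. With median centring 7 were, where 2.50% of the kept probe sets were. With olfactory receptor centring 7 were, where 7.97% were. The genes were proposed with earlier results of these arrays in view, so the count describes them and does not test them.

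The epithelium markers were nearly equal in sum in these later arrays. Their summed signal on the linear scale was 799 in MMS Day 4 and 798 in Bleomycin Day 6, and without Sfrp1, a secreted Wnt inhibitor that was the brightest marker, it was 324 and 328. Of the 10 markers that reached 5 in some array, 5 were under 5 in both later arrays and could show little difference. Among the others, Slc2a1, the glucose transporter GLUT1, had the lowest difference, -0.79, and Cdh1, the adhesion protein E-cadherin, the highest, 0.64. In the Day 2 arrays the sum was 1222 for MMS and 1258 for Bleomycin, but 707 and 469 without Sfrp1, with 3 of the 10 at least 2-fold higher in MMS. The part of the markers in the differences of the 6 genes between the drugs was not tested, at Day 2 or in the later arrays. Against Control, with a sum of 2803, every treated array was far lower, and the part of this in the genes' differences from Control was not tested. In whole lenses fewer cells of a type and less RNA per cell cannot be told apart.

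**Figure D2:**
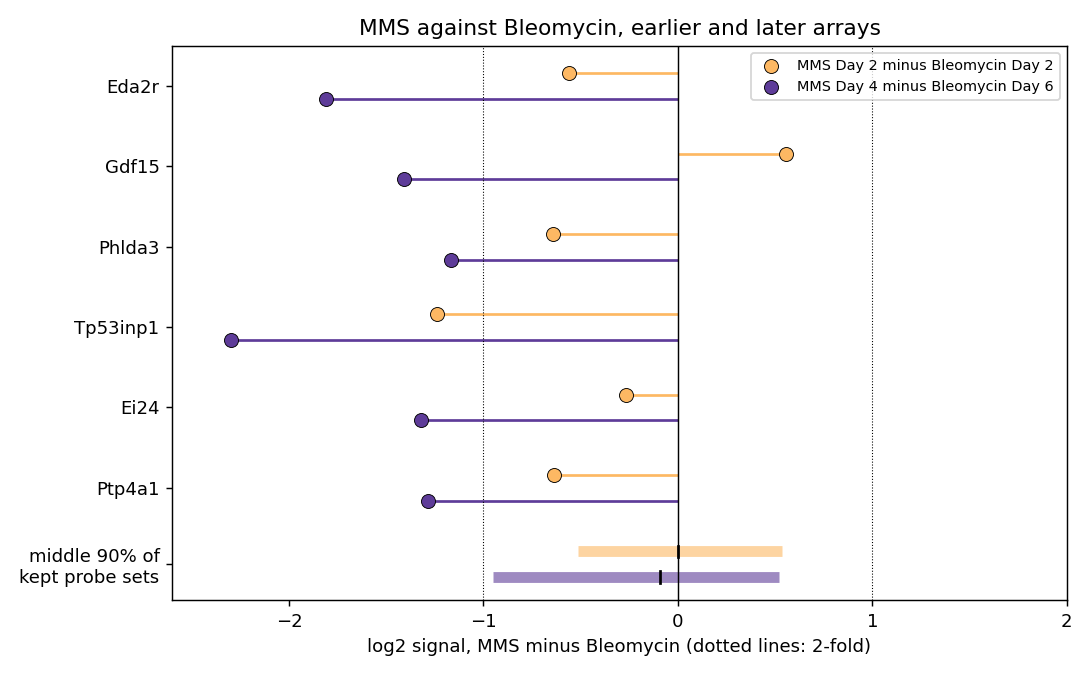
Log2 signal in the MMS array minus that in the Bleomycin array (x axis) for the 6 genes (y axis), at the earlier stage (orange) and the later stage (purple); the bars at the bottom give the middle 90% of the 4155 kept probe sets with their median. All 6 later differences lie below -1, and among the earlier ones only that of Tp53inp1 does.

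Between the days of 1 drug, each gene was lower on Day 4 of MMS, as were 3119 of the 4155 kept probe sets. Each but Eda2r was higher on Day 6 of Bleomycin, as were 1108 of the 4155. For MMS Day 4 against MMS Day 2, Eda2r had a log2 difference of -1.74, Tp53inp1 -0.92, Ei24 -0.83, Gdf15 -0.77, Ptp4a1 -0.50 and Phlda3 -0.17. At least 2-fold lower was 1 of 7 probe sets, where 7.75% of the kept probe sets were, and 0 were higher, where 0.217% were. The median over the kept probe sets was -0.27, so Phlda3 lay above it, and with median centring its difference was 0.18.

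For Bleomycin Day 6 against Bleomycin Day 2, Gdf15 had 1.20, Phlda3 0.36, Ei24 0.23, Ptp4a1 0.14 and Tp53inp1 0.14, while Eda2r had -0.49. Gdf15 was the only gene at least 2-fold higher, with 13 kept probe sets above it. This is 1 of 7 probe sets, where 0.505% of the kept probe sets were higher, and 0 were at least 2-fold lower, where 4.12% were. So 5 of the 6 genes were lower in the later MMS array and higher in the later Bleomycin array, as were 638 of the 4155 kept probe sets (15.4%), and Phlda3 no longer was with median centring or quantile normalization. Several of these differences are small, and the spread between lenses they would have to exceed is not known.

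**Figure D3:**
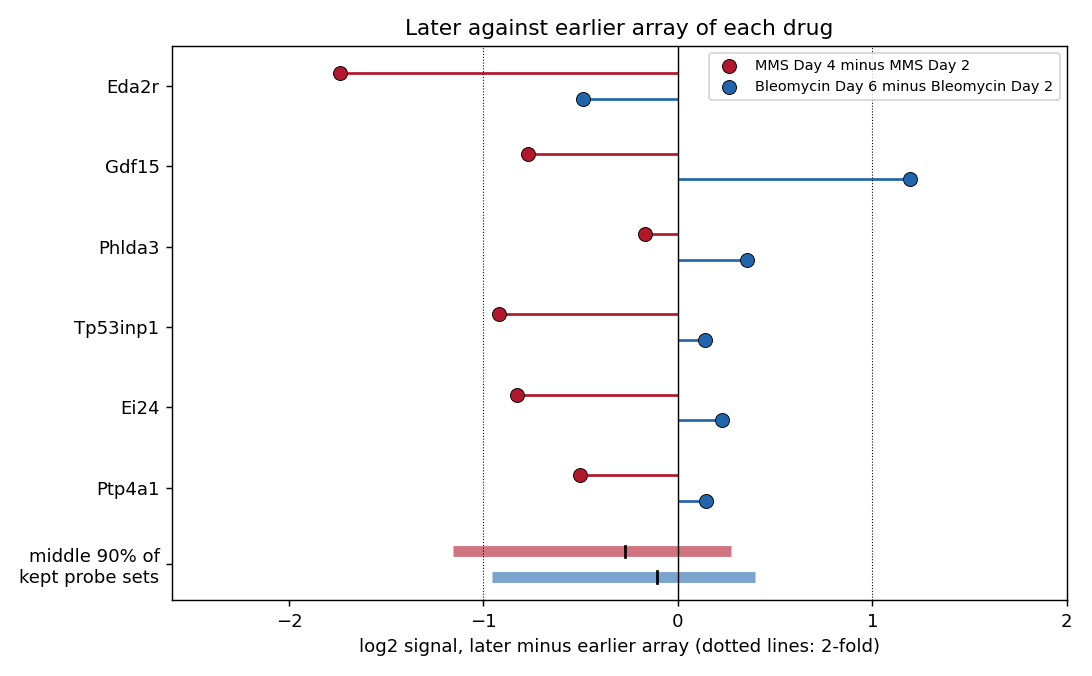
Log2 signal in the later minus the earlier array of each drug (x axis) for the 6 genes (y axis), MMS in red and Bleomycin in blue, with the middle 90% of the kept probe sets and their median at the bottom. The MMS points all lie below 0 (that of Phlda3 is above 0 with median centring), as do 3119 of the 4155 kept probe sets. The Bleomycin points of all genes but Eda2r lie above 0, as do 1108 of the 4155, and that of Gdf15 lies beyond 2-fold.

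Set against Control as deposited, Gdf15 was at least 2-fold higher in each treated array, Eda2r in each but MMS Day 4, and Phlda3 and Tp53inp1 in the Bleomycin arrays. The 4 comparisons share the 1 Control array. On MMS Day 2, 2 of 7 probe sets stood at least 2-fold higher and 2 lower. Of the kept probe sets 1.18% and 9.48% did. With quantile normalization the counts were 3 and 2, where 3.27% and 5.58% of the kept probe sets did. In MMS Day 4 these were 1 and 2, where 1.25% and 26.6% were. With median centring (6.69% and 9.70% of the kept probe sets) they were 3 and 2. They were the same with quantile normalization (6.59% and 9.96%), and both settings add Eda2r and Phlda3. With olfactory receptor centring (0.554% and 41.3%), which loses Gdf15, they were 0 and 2. In Bleomycin Day 2 they were 4 and 2, where 0.842% and 9.31% were, and 4 and 0 with median centring (2.36% and 5.13%). In Bleomycin Day 6 they were 4 and 1, where 1.4% and 19.4% were. They were 5 and 0 with median centring (4.60% and 9.55%) or quantile normalization (5.17% and 8.71%). With olfactory receptor centring (0.987% and 23.7%) they were 4 and 2. The lower probe sets are those of Ptp4a1 alone, and lower values were common over the kept probe sets. Over all 18511 probe sets with 1 symbol the median difference was 0 in each treated array. Of these, 2.88% and 8.10% were at least 2-fold lower in MMS Day 2 and Day 4. In Bleomycin Day 2 and Day 6, 3.08% and 6.10% were. In Bleomycin Day 6, 18.8% of the kept probe sets had a lower difference than Ptp4a1, against 1.61% in MMS Day 2.

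The other p53 targets were taken from a list of 30 genes that arrest growth, cause death or serve repair and metabolism. Of these, 23 had a probe set of their own and 8 reached a signal of 5 in some array. In MMS Day 4 against Bleomycin Day 6, 5 of the 23 were at least 2-fold lower, where 1.44% of all probe sets with 1 symbol were. At Day 2, 0 of 23 were, where 0.286% were. The list's median was -0.18 at the later stage and 0.00 at Day 2. All 5 were among the 8 genes that reached 5, and the other 15 stayed under a signal of 5 in every array. Plk3, 1 of the 5, reached it only in Bleomycin Day 6, the array where it was high.

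Plk3, a stress-responsive kinase, had 3.08 on Day 4 of MMS and 5.14 on Day 6 of Bleomycin (-2.07). Its MMS Day 4 signal was under 5, so the size of that difference is not resolved. Pcna, the sliding clamp of DNA replication and repair, had 5.39 and 7.41 in that order, a difference of -2.02. Ccng1, cyclin G1, had 10.64 and 12.28 (-1.63), and Plk2, another kinase of the stress response, had 6.33 and 7.89 (-1.55). Ddit4, an inhibitor of mTORC1 that low oxygen and damage induce, had 4.94 and 6.28 (-1.34), but it was below its Control level of 7.24 in each treated array. Cdkn1a, which encodes p21 and halts the cell cycle, was less far apart with 6.68 and 7.61 (-0.93), while Triap1, an inhibitor of apoptosis, and Gadd45a, a damage response gene, had -0.28 each. At Day 2 the 8 genes lay between -0.96 (Ddit4) and 0.51 (Pcna), and Plk3 was under 5 in all arrays but Bleomycin Day 6.

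Against Control, those of the 23 at least 2-fold higher numbered 2 on Day 2 and 2 on Day 4 of MMS and 2 on Day 2 and 4 on Day 6 of Bleomycin, where 0.751%, 2.41%, 0.675% and 1.69% of all probe sets with 1 symbol were. The same pair, Cdkn1a and Plk2, made up the first 3 counts, and Plk3 and Pcna joined them in the last. In Control Plk2 (4.06) and Plk3 (2.59) were under 5, so the size of their folds is not resolved. In MMS Day 4 the count among the 8 that reached 5 was 3 with median centring or quantile normalization. Of the kept probe sets 6.69% and 6.59% were higher under these settings. With olfactory receptor centring the count was 1, where 0.554% were. Among the death genes on the list, Fas, Pmaip1, Tnfrsf10b, Perp, Aen, Pidd1 and Apaf1 stayed under 5 in every array. Of the genes that control p53, Mdm2 had 7.43 on Day 2 and 5.85 on Day 4 of MMS and 6.60 on Day 2 and 7.23 on Day 6 of Bleomycin, against 5.91 in Control. Mdm2 thus was lower in the later MMS array and higher in the later Bleomycin array, like 5 of the 6 genes. Mdm4, the other p53 inhibitor, had -0.62, -1.47, -0.51 and -0.89 from Control in the same order, Usp7, which removes ubiquitin from MDM2 and p53, -0.50, -1.43, -0.50 and -1.13, and Hipk2, a kinase that acts on p53, -0.52, -0.76, 0.12 and -1.54.

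**Figure D4:**
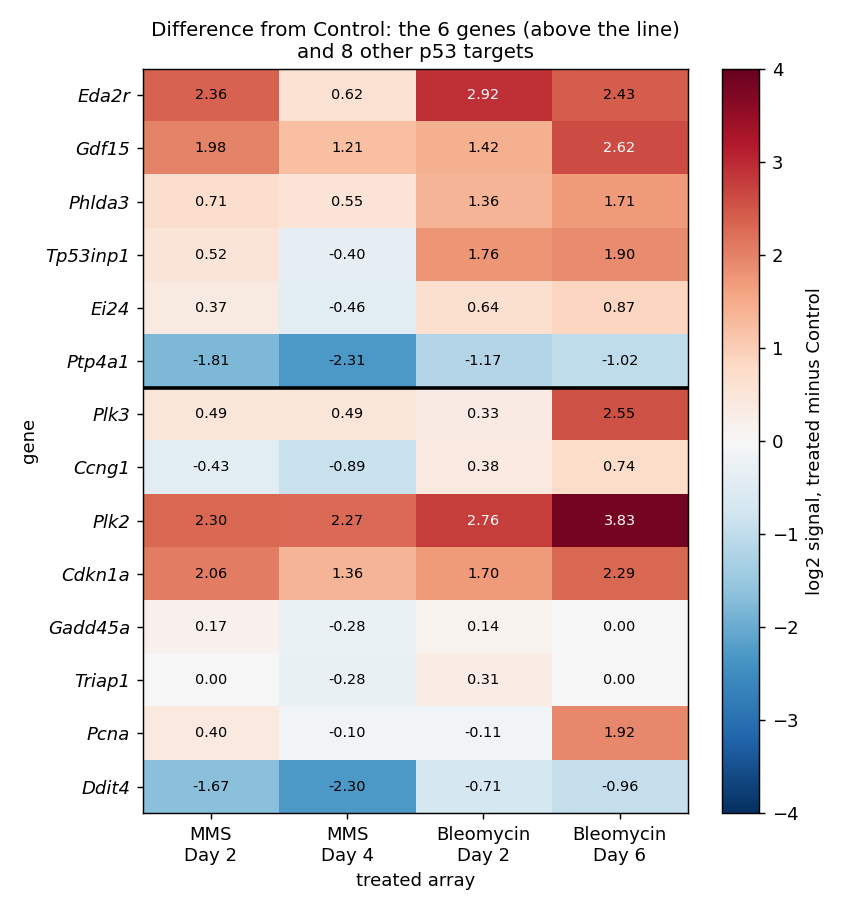
Log2 signal of each treated array minus Control, printed in each cell, for the 6 genes (above the line) and 8 other p53 targets (below it), with red for higher and blue for lower than Control. Eda2r, Gdf15, Phlda3, Plk3, Plk2 and Cdkn1a are above Control in each array, as are 11.7% of the kept probe sets. Ptp4a1 and Ddit4 are below it in each, as are 49.6%.

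The partners of the 6 genes were mostly dim. For Eda2r, the ligand gene Eda, the related receptors Edar and Tnfrsf19 and the adaptors Traf3 and Traf6 stayed under 5 in every array. For Gdf15, the receptor genes Gfral and Ret did so too, while Furin, a protease that cleaves proproteins, stayed between 5.10 and 5.36. Atf4, a transcription factor of the integrated stress response, had 9.35 and 9.22 on Days 2 and 4 of MMS and 9.31 and 9.71 on Days 2 and 6 of Bleomycin, against 9.36 in Control. Ddit3, the ATF4-induced factor CHOP, was below Control in each treated array, with differences of -1.04, -1.32, -0.86 and -0.66, where Gdf15 was above it.

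For Phlda3, Akt1 was below Control by 0.33 to 0.74 in the treated arrays, and Akt2 by 0.30 to 0.62. For Tp53inp1, Gabarap, an autophagy protein, differed from Control by -0.47 in MMS Day 4 and by at most 0.04 in the other treated arrays. For Ei24, Becn1, which starts autophagy, was above Control by 0.62 on Day 6 of Bleomycin and by 0.36 in the other treated arrays. Rb1cc1, of the complex that starts autophagosomes, had 5.19, 4.22, 5.46 and 5.02 in the treated arrays in the same order, against 6.45 in Control. Bcl2, the survival factor, had 4.86, 4.79, 4.86 and 4.46, against 5.60 in Control. For Ptp4a1, the related Ptp4a3 and the partner genes Cnnm1 to Cnnm4 stayed under 5 in every array.

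The genes with the most similar pattern were found by the Euclidean distance between log2 signals over the 5 arrays, each gene centred on its own mean, among 4032 others with a mean signal of 5 in some array. Gdf15 was closest to Cdkn1a, at 0.45, where its median distance to all was 2.17, and then to the glutaredoxin Glrx3 (1.00) and the zinc finger gene Zfand2a (1.06). Cdkn1a had 7.38 on Day 2 and 6.68 on Day 4 of MMS and 7.02 on Day 2 and 7.61 on Day 6 of Bleomycin, against 5.32 in Control. Eda2r was closest to Abcb1b, a drug efflux pump, at 0.71, to Pln, a regulator of the calcium pump SERCA, at 0.76, and to Tp53inp1 at 1.38, with a median of 2.64.

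Phlda3 was closest to Ciart, a repressor of the circadian clock, at 0.43, to the nucleolar Gnl3 at 0.60 and to Glrx3 at 0.60, with a median of 1.57. Tp53inp1 was also closest to Ciart, at 0.70, then to Sat1, an enzyme of polyamine breakdown, at 0.97 and to Phlda3 at 1.03, with a median of 2.13. Ptp4a1 was closest to the transcription elongation factor Tcea1 at 0.25, to Tmcc1 at 0.32 and to the repressor Hbp1 at 0.34, with a median of 1.58. Of the other 5 genes none was near Ptp4a1, the closest being Ei24, which was at place 2843 of 4032. Ei24 itself did not differ 2-fold from Control as deposited and was not ranked.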

How the data were processed

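The authors measured RNA of rat lenses on Rat Gene 2.0 ST arrays, 1 for each of 5 conditions. The deposited values are log2 signals, which the authors had normalized in R with RMA; RMA corrects background, makes the arrays' distributions alike and summarizes each probe set. They were used as deposited. The versions of R and of the RMA package are not given in the sources used here. The methods give 1 sample per group. Arrays give no read depth, and a signal near background understates folds.

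Symbols came from the platform annotation, in which 19086 of 36685 probe sets had a symbol, 18511 of them exactly 1 and 575 several. Of the 18511, 18394 matched the rat genes of RefSeq (GRCr8) by gene ID. Differences of log2 signals, counts at least 2-fold apart, medians and Euclidean distances were obtained with Python 3.11.15, pandas 2.3.3 and numpy 2.4.6, and plotted with matplotlib 3.10.9. Counts and medians are over probe sets; values of single genes, pattern distances and summed signals average the probe sets of a gene. Background shares are over probe sets that reached a log2 signal of 5 in some array, or over all 18511 where the text says so. The counting step was tested on simulated data. With 1 array per condition no test was made. RMA returned equal values in both arrays of a pair for 13.6% to 27.7% of all probe sets, and for 0 of the 7 studied here.

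The members and lists were chosen with earlier results of these data known. The genes named are the 6, the partners and p53 control genes that reached a signal of 5, the 8 other p53 targets with the largest difference between the drugs among those that did, the 3 genes most similar to each member that differed 2-fold from Control, and markers of the lens epithelium. The rule for markers asked for those with the highest Control signal, and Sfrp1, Slc2a1 and Cdh1 are among these. Genes under 5 are named without values. Atr, Tp53inp2, Map1lc3b and Ptp4a2 were not analysed here. The settings tried besides were a signal filter at 6 or none, median centring, quantile normalization, centring on olfactory receptor probe sets, a 1.5-fold threshold and single probe sets.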

Additional observations from a re-analysis of the deposited data

Results flagged for a closer look

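Later minus earlier differences lay on opposite sides of 0 for the 2 drugs in 5 of the 6 genes. In MMS and in Bleomycin they were -0.77 and 1.20 for Gdf15, -0.17 and 0.36 for Phlda3, -0.92 and 0.14 for Tp53inp1, -0.83 and 0.23 for Ei24, and -0.50 and 0.14 for Ptp4a1. With median centring or quantile normalization Phlda3 was above 0 in MMS too. MMS minus Bleomycin also changed side between the stages for Gdf15, with 0.56 in the earlier and -1.41 in the later arrays. These differences between the drugs were not tested, since each condition had 1 array, and the later arrays also differ in days of culture.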

How the results depend on the processing

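No paired analysis was possible because each condition had 1 array. No gene's difference of at least 2-fold changed sign under any scaling. Of 48 differences of single genes, those that moved by less than 1.5-fold were 42 (median centring), 45 (quantile normalization) and 48 (olfactory receptor centring), and 3, 3 and 0 changed sign, namely Tp53inp1 and Ei24 in MMS Day 4 against Control and Phlda3 in MMS Day 4 against MMS Day 2. Each Ptp4a1 probe set alone moved none of 8 differences by that much. Probe sets of the 6 genes at least 2-fold apart were 7 of 7 for MMS Day 4 against Bleomycin Day 6, and 6 or 7 under each alternative. In MMS Day 4 against Control they were 3, and 5 with median centring and 5 with quantile normalization. In MMS Day 4 against MMS Day 2 they were 1, with 4 under olfactory receptor centring (15.7% of the kept probe sets lower), 4 at a 1.5-fold threshold (25.3% lower) and 0 with a signal filter at 6, which leaves out Eda2r. For MMS Day 2 against Bleomycin Day 2 the 1.5-fold threshold gave 4 in place of 1, and 2 in place of 0 for the other p53 targets, where 3.75% of the kept probe sets were lower and 4.43% higher. Leaving the brightest marker out of the epithelium sum was chosen after seeing the data. The background moved too. In MMS Day 4 against Control, 1.25% of the kept probe sets were higher and 26.6% lower, and with median centring 6.69% and 9.70%. The median over them was -0.45 as deposited and 0.18 when centred. Leaving out replicates was not possible.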
